A study of Mus musculus with 18 samples.

Results

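A set of 10 genes that are used to define or to maintain nephron progenitors, Six2, Cited1, Eya1, Osr1, Sall1, Pax2, Wt1, Meox1, Uncx and Spock2, was followed through bulk RNA sequencing of cultured embryonic mouse kidneys. They were taken by symbol from the deposited table, where each matched 1 row, so that 10 of the 78317 genes in the table are described, and all 10 were among the 16544 genes with enough counts to be tested. Nephron progenitors form a cap of mesenchyme over each tip of the ureteric bud, the epithelial tree that becomes the collecting system. They renew under a network of transcription factors centred on Six2, and some of them leave the cap when Wnt signals from the bud induce them to form the epithelium of a new nephron. Cited1 marks the uncommitted progenitors, and its loss is an early sign of induction, whereas Six2 persists somewhat longer.

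The kidneys came from wild-type mice of the outbred CD1 stock at embryonic day 14. They were exposed for 4 hours to AAV2, an adeno-associated viral vector, and cultured in a gel of collagen I and matrigel for 72 hours. Every vector drove the red reporter mCherry from the ubiquitous CAG promoter and carried 2 microRNA-30-type short hairpin RNA (shRNA) cassettes, so that no group was free of virus. The cassettes were directed at 2 regions of Mylk (Mylk-shRNA), at 1 region each of Rock1 and Rock2 (Rock1/2-shRNA), or held rearranged Rock1 and Rock2 target sequences (scramble-shRNA). The product of Mylk, myosin light chain kinase, acts on actomyosin contraction. Pooled cultures of each vector were dissociated and sorted into an mCherry positive fraction (the top 25% of signal) and an mCherry negative fraction (the bottom 50%). This gave 6 groups of 3 libraries, 1 from each of 3 litters, or 9 cultures that each supplied both fractions. The cells were not sorted by type, and the negative fraction is defined by low reporter signal, not by the absence of virus. In bulk libraries fewer cells of a type and less RNA per cell cannot be told apart.

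A library held 3121620 to 12170800 counts in all (median 7581370). The 6 libraries of litter 3 stood apart. Mitochondrial transcripts took 3.95 to 9.16% of their counts against 2.01 to 4.02% in litters 1 and 2, and their median total count was 3987190 against 9169650. Results are therefore given with and without litter 3 where it changed them. The lowest count of any of the 10 genes in any library was 94, for Meox1, so none was near the limit of detection. In the positive fraction the targeted genes stood at 175 ± 10.7 CPM (counts scaled to a library total of 1e6) with Mylk-shRNA against 197 ± 14.7 with scramble-shRNA for Mylk, at 80.2 ± 4.90 with Rock1/2-shRNA against 85.6 ± 13.7 for Rock1, and at 62.9 ± 6.02 against 71.4 ± 9.12 for Rock2 (SD, n = 3 each), and none passed the test.

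The first comparison asked how the progenitor genes differed between cells with high and low reporter signal from the same cultures. All 10 genes were below 0 on the log2 scale in the positive fraction on average over the 3 vectors (53.5% of all genes), and 9 of them passed the test (edgeR's quasi-likelihood test, Benjamini-Hochberg adjusted p under 0.05 over all genes), where 16.0% of all tested genes were called lower and 33.6% were called in either direction. The median log2 fold change of the 10 genes was -0.73, against -0.03 over all genes. This fit had no term for litter or culture, although both fractions came from the same cultures. With litter as a replicate block all 10 were called lower, where 23.5% of all genes were. Pax2 and Uncx showed the largest differences, each more than 2-fold, and Cited1 and Sall1 the smallest. The values of each gene follow in the order of litters 1, 2 and 3.

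**Figure D1:**
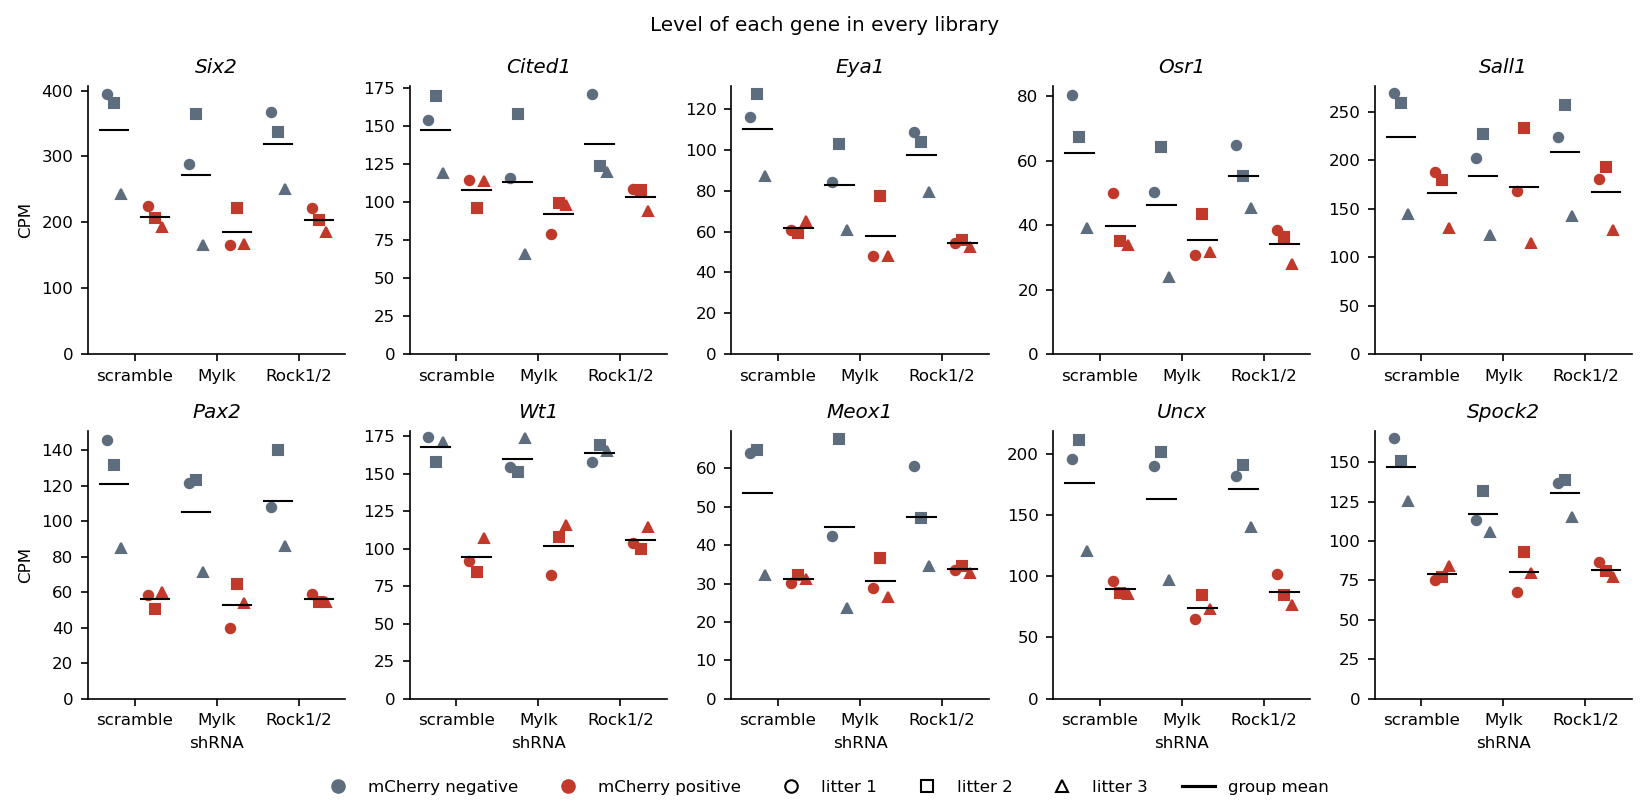
Level of each progenitor gene in CPM (vertical axis, starting at 0) in the 18 libraries, by vector (horizontal axis), with grey for the mCherry negative and red for the mCherry positive fraction, 1 marker shape per litter and a line at the group mean. In all 10 panels the 3 negative means lie above the 3 positive ones, and the grey triangles of litter 3 lie low except for Wt1.

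Six2 (ENSMUSG00000024134) encodes the homeodomain transcription factor that holds progenitors undifferentiated. In the negative fraction it stood at 395, 381 and 243 CPM with scramble-shRNA, at 288, 364 and 165 CPM with Mylk-shRNA, and at 367, 337 and 250 CPM with Rock1/2-shRNA. The positive fraction held 225, 206 and 192 CPM with scramble-shRNA, 165, 222 and 168 CPM with Mylk-shRNA, and 221, 203 and 186 CPM with Rock1/2-shRNA. The positive libraries were lower in 8 of the 9 cultures, and the ranges of the fractions overlapped only through the Mylk-shRNA negative library of litter 3. On average Six2 was 1.62-fold lower in the positive fraction (log2 fold change -0.69 ± 0.12 SE, adjusted p = 0.000296 by edgeR).

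Cited1 (ENSMUSG00000051159) encodes a transcriptional co-regulator of the uncommitted progenitor. Its negative libraries held 154, 170 and 120 CPM with scramble-shRNA, 116, 158 and 65.9 CPM with Mylk-shRNA, and 171, 124 and 120 CPM with Rock1/2-shRNA. Its positive libraries held 115, 96.2 and 114 CPM with scramble-shRNA, 79.2, 99.6 and 98.1 CPM with Mylk-shRNA, and 109, 108 and 94.3 CPM with Rock1/2-shRNA. The fractions overlapped, and in the Mylk-shRNA culture of litter 3 the positive library was the higher one, at 149% of the negative. Over all cultures Cited1 was 1.36-fold lower in the positive fraction (log2 fold change -0.45 ± 0.13 SE, adjusted p = 0.0118 by edgeR).

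Because Cited1 and Six2 mark overlapping stages, their ratio was compared within cultures. Cited1 CPM stood at 36.8 to 49.3% of Six2 CPM in the negative libraries (median 43.5%) and at 44.8 to 59.2% in the positive ones (median 50.8%). The ratio was higher in the positive fraction in 9 of 9 cultures. The mean difference was 0.25 on the log2 scale of CPM plus 1 (SD 0.20, n = 9 cultures), with p = 0.00391 in a 2-sided exact sign-flip permutation test, which is the smallest value that 9 cultures allow. Without litter 3 the mean difference was 0.23 in 6 cultures (exact permutation p = 0.0313, again the smallest possible). Cultures of a litter share their animals' origin, so the 9 cultures are not fully independent. Marker lists of other cell types differed between the fractions as well, with the values given further on, and whether the ratio differed within progenitors was not tested.

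**Figure D2:**
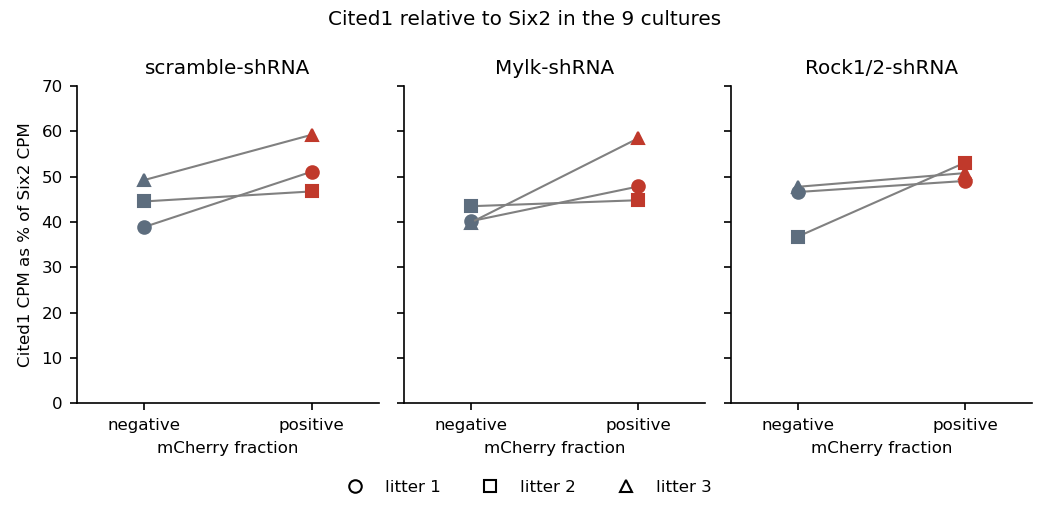
Cited1 CPM as a percent of Six2 CPM (vertical axis) in the mCherry negative and positive fractions of the 9 cultures, 1 panel per vector, with lines joining the fractions of a culture and 1 marker shape per litter. All 9 lines rise from the negative to the positive fraction, by the least in litter 2 with Mylk-shRNA and scramble-shRNA.

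The stretches before the transcription starts of these 2 genes are shown because the ratio turns on them. They were taken from RefSeq promoter windows (build GRCm38.p6, 250 bases before to 50 after a start), which held 12 windows for 6 of the 10 genes, Six2, Cited1, Sall1, Pax2, Uncx and Spock2. The Six2 stretch is chr17:85688275-85688504 on the minus strand, from 250 to 21 bases before the start, where an annotated exon begins. The Cited1 stretch is chrX:102252182-102252431 on the minus strand and is the first of 3 windows for the gene. Both are given 5′ to 3′ with CCAAT and TATAAA matches in capitals.
Six2: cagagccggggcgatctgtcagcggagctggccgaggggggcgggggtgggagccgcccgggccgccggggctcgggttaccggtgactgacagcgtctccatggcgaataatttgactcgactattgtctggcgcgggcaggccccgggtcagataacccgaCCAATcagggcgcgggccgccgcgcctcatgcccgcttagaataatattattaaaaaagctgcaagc
Cited1: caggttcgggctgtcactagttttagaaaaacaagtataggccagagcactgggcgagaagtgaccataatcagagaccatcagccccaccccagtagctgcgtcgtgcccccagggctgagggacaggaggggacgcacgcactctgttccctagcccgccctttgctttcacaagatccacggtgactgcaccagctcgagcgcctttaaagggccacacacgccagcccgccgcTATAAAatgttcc
The Six2 stretch held a CCAAT match 87 bases before the start, and the Cited1 stretch a TATAAA match 13 bases before it. Over both strands, CCAAT occurred in 37.4% of the 32851 promoter windows of the table and in 4 of the 12 windows of the progenitor genes (1 window each for Six2, Sall1, Uncx and Cited1). TATAAA occurred in 13.6% of all windows and in 2 of the 12, both of Cited1. The letters TGATAC, a core recognised by SIX-family proteins, and TAATTA, a core recognised by many homeodomain proteins, occurred in 5.46% and 5.29% of all windows and among the 12 only in that of Uncx. In the Uncx window all 250 bases before the start lie within an annotated exon. These matches describe the letters only.

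Eya1 and Sall1 encode partners of Six2, and Osr1 acts before it. Eya1 (ENSMUSG00000025932), a phosphatase and co-activator of SIX-family proteins, held 116, 128 and 87.1 CPM with scramble-shRNA, 84.5, 103 and 60.6 CPM with Mylk-shRNA, and 109, 104 and 79.4 CPM with Rock1/2-shRNA in the negative fraction. The positive values were 60.7, 59.2 and 65.3 CPM, 47.9, 77.7 and 48.2 CPM, and 54.3, 56.0 and 52.4 CPM in the same order of vectors. Every culture had less Eya1 in its positive than in its negative library, with some overlap between cultures, and the average difference was 1.74-fold (log2 fold change -0.80 ± 0.10 SE, adjusted p = 8.24e-06 by edgeR).

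Sall1 (ENSMUSG00000031665), a zinc finger factor that binds with Six2, was the only one of the 10 genes that did not pass. Its negative libraries held 269, 259 and 145 CPM with scramble-shRNA, 202, 227 and 122 CPM with Mylk-shRNA, and 224, 258 and 143 CPM with Rock1/2-shRNA. Its positive libraries held 188, 179 and 130 CPM, 168, 233 and 115 CPM, and 180, 193 and 128 CPM. The litter 3 libraries were the lowest of both fractions, and the positive library was lower in 8 of 9 cultures. The log2 fold change was -0.34 ± 0.16 SE (adjusted p = 0.119 by edgeR), whereas with litter as a replicate block it was -0.32 (adjusted p = 5.07e-05) and without litter 3 it was -0.38 (adjusted p = 0.000985). Leaving out litter 3 of the scramble-shRNA negative or of the Mylk-shRNA negative group alone also brought it under the threshold (adjusted p = 0.0473 and 0.0483 by edgeR).

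Osr1 (ENSMUSG00000048387), a zinc finger factor of the earliest kidney mesoderm, ranged from 23.9 to 80.3 CPM in the negative (median 55.3) and from 27.9 to 50.1 CPM in the positive fraction (median 35.1). Meox1 (ENSMUSG00000001493), a homeodomain factor of the cap mesenchyme, ranged from 23.7 to 67.7 CPM in the negative (median 47.1) and from 26.5 to 36.7 CPM in the positive fraction (median 32.2). For both, the ranges overlapped through litter 3, and the Mylk-shRNA culture of litter 3 was the 1 of 9 in which the positive library was higher. Osr1 was 1.57-fold and Meox1 1.60-fold lower on average (adjusted p = 0.00612 and 0.00576 by edgeR).

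Pax2 (ENSMUSG00000004231), a paired-box factor that works in progenitors and in the ureteric bud alike, held 146, 132 and 85.1 CPM with scramble-shRNA, 121, 123 and 71.3 CPM with Mylk-shRNA, and 108, 140 and 86.1 CPM with Rock1/2-shRNA in the negative fraction. The positive values were 58.4, 50.7 and 59.9 CPM, 39.9, 64.3 and 53.8 CPM, and 58.9, 54.5 and 54.4 CPM. No positive library reached any negative one, and the average difference was 2.13-fold (log2 fold change -1.09 ± 0.12 SE, adjusted p = 1.69e-06 by edgeR). Such a complete separation downward was seen in 2.06% of all tested genes and among the 10 for Pax2, Wt1 and Spock2.

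Uncx (ENSMUSG00000029546), a homeodomain factor of the cap mesenchyme, held 196, 212 and 121 CPM with scramble-shRNA, 191, 202 and 96.8 CPM with Mylk-shRNA, and 182, 191 and 140 CPM with Rock1/2-shRNA in the negative fraction. Its positive libraries held 96.2, 86.2 and 85.9 CPM, 65.5, 85.1 and 73.0 CPM, and 102, 84.5 and 76.4 CPM. All 9 cultures had less in the positive library, and the fractions overlapped only between the Mylk-shRNA negative library of litter 3 and the highest Rock1/2-shRNA positive one. The difference was 2.12-fold (log2 fold change -1.08 ± 0.13 SE, adjusted p = 2.89e-06 by edgeR).

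Wt1 (ENSMUSG00000016458), a zinc finger factor of progenitors that is also strongly used by podocytes, held 174, 158 and 171 CPM with scramble-shRNA, 154, 151 and 174 CPM with Mylk-shRNA, and 158, 169 and 165 CPM with Rock1/2-shRNA in the negative fraction. The positive values were 91.5, 84.2 and 107 CPM, 82.4, 108 and 116 CPM, and 104, 100.1 and 115 CPM. The fractions were wholly apart, litter 3 was not low, and Wt1 was 1.69-fold lower in the positive fraction (log2 fold change -0.76 ± 0.08 SE, adjusted p = 2.62e-07 by edgeR).

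Spock2 (ENSMUSG00000058297), a secreted proteoglycan and marker of the cap mesenchyme, held 165, 151 and 125 CPM with scramble-shRNA, 113, 132 and 106 CPM with Mylk-shRNA, and 137, 139 and 115 CPM with Rock1/2-shRNA in the negative fraction. Its positive libraries held 75.4, 77.3 and 84.0 CPM, 67.8, 93.2 and 79.5 CPM, and 86.8, 80.7 and 77.2 CPM. These ranges did not meet either, and the difference was 1.70-fold (log2 fold change -0.76 ± 0.07 SE, adjusted p = 6.94e-08 by edgeR).

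**Figure D3:**
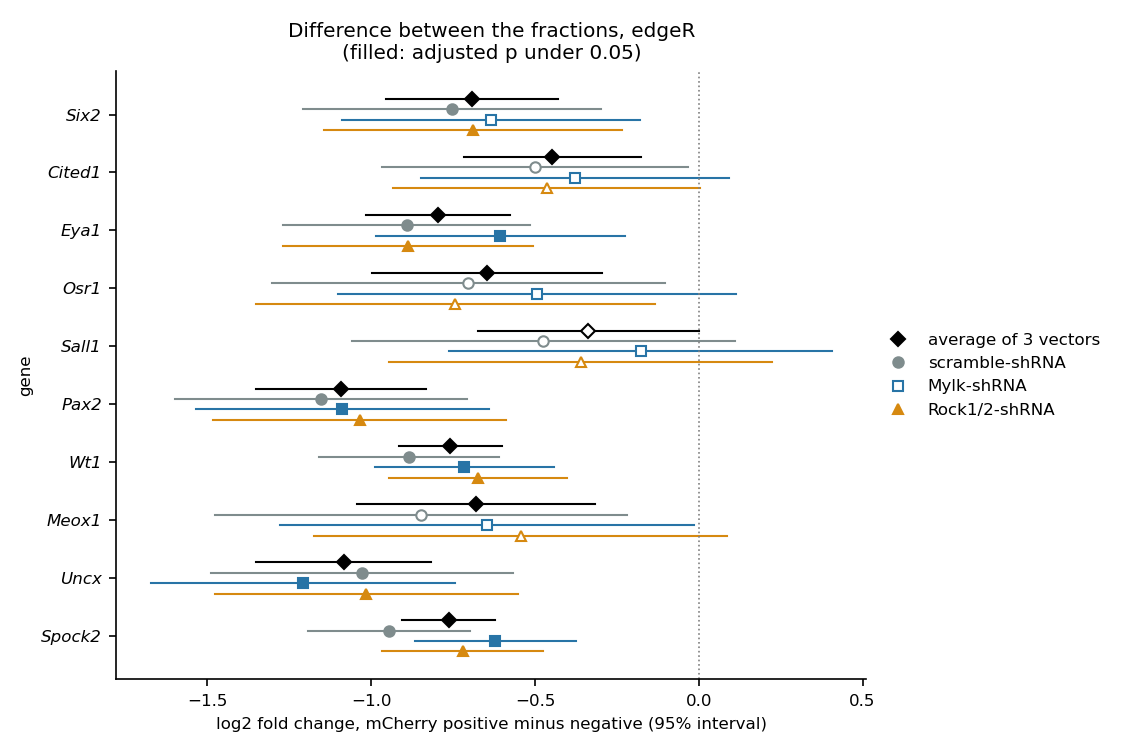
Log2 fold change of the positive against the negative fraction (horizontal axis) for each progenitor gene, with 95% intervals from edgeR, averaged over the vectors (black diamonds) and within each vector, where filled markers have an adjusted p under 0.05. All estimates lie left of 0, with medians of -0.87, -0.63 and -0.71 within scramble-shRNA, Mylk-shRNA and Rock1/2-shRNA.

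Within single vectors, 3 libraries stood against 3. With scramble-shRNA 6 of the 10 genes were called lower (4.85% of all genes), with Mylk-shRNA 5 (5.14%) and with Rock1/2-shRNA 6 (4.30%). Pax2, Wt1, Eya1, Uncx and Spock2 passed with each vector, and Six2 passed with scramble-shRNA (adjusted p = 0.0276) and Rock1/2-shRNA (0.0472) but not with Mylk-shRNA (0.0626 by edgeR). With litter as a replicate block the counts were 9, 6 and 8 (10.8%, 11.1% and 9.05% of all genes). Six2 then passed with each vector. Its adjusted p was 0.00176 with scramble-shRNA, 0.00796 with Mylk-shRNA and 0.00369 with Rock1/2-shRNA by edgeR. The omissions below were made without the block. Without litter 3, 10 genes were called with scramble-shRNA and 9 with Mylk-shRNA, and 9 also without the Mylk-shRNA negative library of litter 3 alone. With Rock1/2-shRNA, Cited1 (adjusted p = 0.111) and Sall1 (0.0563 by edgeR) did not pass without litter 3, and the others did. The share of all genes called without litter 3 is not given here. Leaving out 1 library of the Mylk-shRNA groups called 1414 to 2436 of all genes in either direction. Six2 did not pass with scramble-shRNA when litter 1 or 2 of the negative group or any positive library was left out (adjusted p = 0.057 to 0.117), nor with Rock1/2-shRNA under the same omissions (adjusted p = 0.0888 to 0.187 by edgeR). Eya1 with Mylk-shRNA (adjusted p = 0.0316) did not pass without litter 1 or 2 of the negative or litter 1 or 3 of the positive group (adjusted p = 0.0745 to 0.196 by edgeR). Differences of these vector-specific effects were tested as interactions, and no gene was called, so none of the 10 was shown to differ between vectors in its fraction difference.

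The negative libraries of litter 3 held low values of most of the 10 genes. There they had a median log2 difference of -0.68 between litter 3 and the mean of the other litters, against -0.05 over all genes. For Six2, Osr1, Sall1, Pax2, Meox1 and Uncx every negative library of litter 3 lay below every negative library of litters 1 and 2, which was so for 19.3% of all genes. Wt1 differed by 0.08 in the opposite direction. In the positive fraction the median difference was -0.10, against -0.09 over all genes, and of the 10 genes Sall1 alone separated the litters (16.3% of all genes). For each of the 10 genes the median level of the positive library, as a percent of the negative one, was closer to 100% in litter 3. The positive library held a median 96.7% of the negative level of Meox1 there and 54.8% in litters 1 and 2, 95.2% against 65.9% for Cited1, and 67.1% against 58.9% for Spock2. Without litter 3 the log2 fold changes of the 10 genes ran from -1.30 for Pax2 and -1.24 for Uncx to -0.62 for Cited1 and -0.38 for Sall1. Litter 3 also had the higher mitochondrial share and the lower depth given above, and their part in its lower progenitor values was not tested.

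Other genes of the progenitors and their surroundings were followed as lists, some of which share a gene. Of 20 further progenitor genes 18 were tested, and 10 were lower and 1 was higher in the positive fraction (median log2 fold change -0.27), where 16.0% of all genes were called lower and 17.6% higher. The lower ones included Itga8, the integrin chain of the mesenchyme facing the bud (-0.48 ± 0.06), Rspo1, an enhancer of Wnt signalling (-0.83 ± 0.11), Mycn, a growth-promoting transcription factor (-0.74 ± 0.10), and Tmem100 (-0.66 ± 0.13). The higher one was Gdnf, the growth factor with which the mesenchyme attracts the ureteric bud (0.31 ± 0.09, adjusted p = 0.00937 by edgeR), named here after its value was seen. Against the same shares, 5 of 10 signals of the niche were lower and 1 was higher (median -0.83), among the lower ones Bmp7, which sustains progenitors (-0.95 ± 0.15), Fgf9 (-1.14 ± 0.13), Bmp4 (-0.81 ± 0.10) and Wnt11, a signal of the ureteric tip (-1.01 ± 0.09). Each ± here is an SE of the log2 fold change.

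Genes of the induced, early nephron were lower as well. All 14 passed the test and were lower in the positive fraction, with a median log2 fold change of -1.87, among them Wnt4, the signal that drives the progenitors' conversion to epithelium (-1.71 ± 0.09), Bmp2 (-1.47 ± 0.09), the Notch ligand Dll1 (-2.51 ± 0.27) and Osr2 (-2.44 ± 0.28). Their summed level was 277 to 347 CPM in the positive and 553 to 1035 CPM in the negative libraries, without overlap. The summed level of the 10 progenitor genes was 776 to 1064 CPM in the positive and 909 to 1761 CPM in the negative libraries, with overlap.

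Marker lists of other cell types also held called genes, to be read against the 16.0% of all genes called lower and the 17.6% called higher. Of 12 genes of the interstitial stroma 11 were higher in the positive fraction (median 1.07), with Dcn, Lum, Postn and Foxd1 the 4 of smallest p, and the list summed to 5487 to 8773 CPM in the positive and 3825 to 4520 CPM in the negative libraries. All 8 macrophage genes were higher (median 5.96), with sums of 163 to 384 against 3.70 to 10.8 CPM. Of 7 erythroid genes 5 were tested and 4 were higher (median 2.77), with sums of 307 to 2690 against 57.9 to 249 CPM. Ureteric tip genes were lower in 6 of 7 cases (median -1.08, sums of 76.5 to 106 against 94.6 to 162 CPM), and ureteric trunk genes in 6 of the 7 tested of 8 (median -0.66, sums of 57.8 to 97.2 against 80.2 to 149 CPM). Of 10 endothelial genes 7 were lower and 2 higher (median -0.64, sums of 159 to 283 against 230 to 416 CPM). Among 6 tested podocyte genes of 10, 2 were higher and 2 lower (median 0.14, sums of 98.2 to 127 against 75.8 to 123 CPM), and among 7 tested proximal tubule genes of 8, 1 was lower (median 0.30, sums of 53.5 to 140 against 47.7 to 113 CPM). Of 10 cell cycle genes 6 were higher (median 0.35, sums of 856 to 1236 against 630 to 1070 CPM). No gene of any list was at 0 in all libraries of a fraction. With litter as a replicate block 23.5% of all genes were called lower and 45.8% in either direction. The count then rose from 10 to 14 lower for the further progenitor genes, from 0 to 3 higher for the proximal tubule and from 6 to 9 higher for the cell cycle, and by at most 1 gene in a direction for each other list. The part of these marker differences in the lower progenitor values of the positive fraction was not tested.

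**Figure D4:**
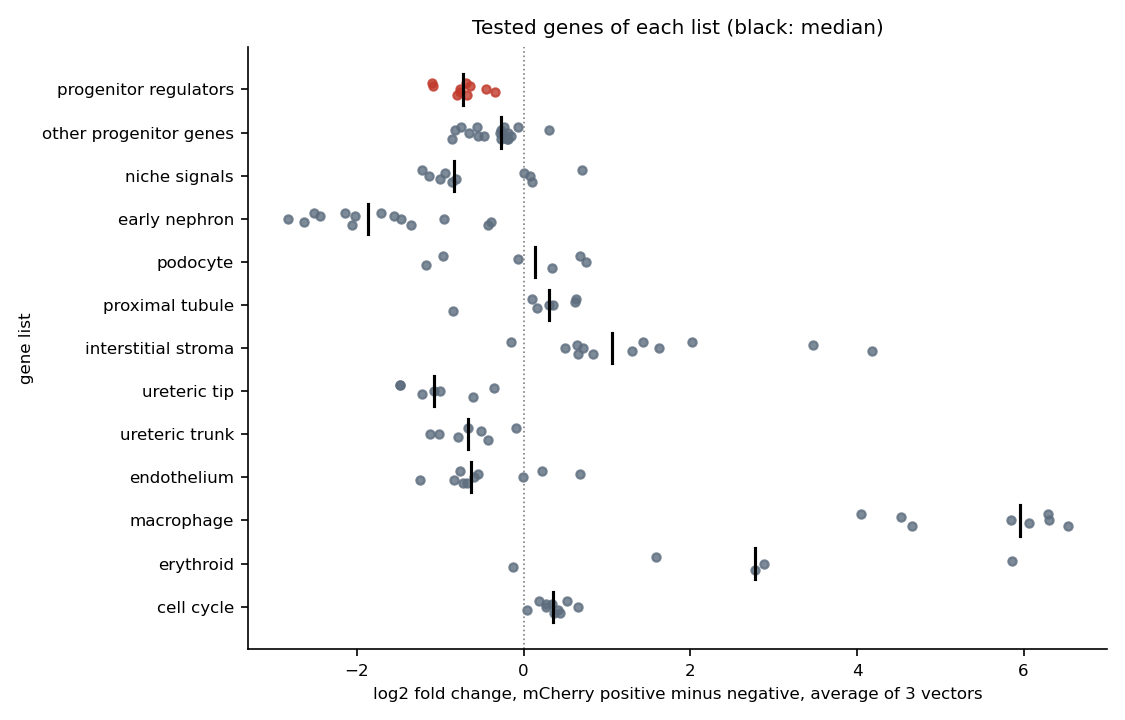
Log2 fold change of the positive against the negative fraction, averaged over the vectors (horizontal axis), for each tested gene of the progenitor genes (red) and of 12 other lists (grey), with black bars at the medians. The progenitor genes lie between -1.09 and -0.34 with a median of -0.73, within the spread of the early nephron genes, whose median is -1.87, while the interstitial stroma has a median of 1.07.

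The second set of comparisons asked whether knockdown vectors changed the progenitor genes. Neither Mylk-shRNA nor Rock1/2-shRNA gave a called gene against scramble-shRNA in either fraction, among the 10 or among all genes (0% called by edgeR, and 0 by DESeq2's Wald test). At an unadjusted p under 0.05 edgeR gave 285 genes for Mylk-shRNA and 200 for Rock1/2-shRNA in the negative fraction, and 258 and 145 in the positive fraction, where DESeq2 gave 219, 152, 154 and 79. The differences below are therefore descriptions. The comparisons with Mylk-shRNA and Rock1/2-shRNA share their scramble-shRNA libraries.

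With Mylk-shRNA all 10 genes had a log2 fold change below 0 in the negative fraction, from -0.41 for Eya1 and Osr1 to -0.07 for Wt1, with a median of -0.30. Over all genes 47.8% were below 0 and the median was 0.01. Of the 10, 8 were lower in all 3 litters (13.7% of all genes), Meox1 and Wt1 being the exceptions. The 10 genes varied together, as given further on, so within a litter they are not separate observations. At an unadjusted p under 0.05, 2 of the 10 were lower (0.707% of all genes). The medians within litters were -0.43, -0.08 and -0.37, so that litter 2 showed little difference. Spock2 stood at 117 ± 13.3 CPM with Mylk-shRNA against 147 ± 20.2 CPM with scramble-shRNA, or 79.7% (95% interval 67.4 to 94.2%, unadjusted p = 0.0104, adjusted p = 1 by edgeR). Eya1 stood at 82.7 ± 21.2 CPM against 110 ± 20.9 CPM, or 75.3% (95% interval 58.3 to 97.2%, unadjusted p = 0.0314, adjusted p = 1 by edgeR; SD, n = 3 in each group). Six2 stood at 272 ± 100.2 CPM against 340 ± 84.4 CPM, or 80.6% (95% interval 59.0 to 110%).

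None of these differences passed a test after adjustment over all genes. With litter as a replicate block 5 of the 10 (Spock2, Eya1, Sall1, Osr1 and Six2) had an unadjusted p under 0.05 on the lower side, where 2.54% of all genes did, and the smallest adjusted p was 0.561 by edgeR. The median depended on single libraries: it was -0.09 without litter 3 and -0.54 without litter 2 of the Mylk-shRNA negative group. Without litter 3 of that group 7 of the 10 genes were below 0, and Uncx (0.15), Meox1 (0.02) and Pax2 (0.008) lay above it. Uncx also lay above 0 (0.05) without litter 2 of the scramble-shRNA negative group. Each of these omissions left a litter in a single group of the comparison. Without litter 3 in both groups all 10 genes were below 0, from -0.355 for Eya1 to -0.034 for Uncx. With all litters kept, 17 of 18 further progenitor genes were below 0 (median -0.21). So were 5 of 14 early nephron genes (median 0.03), whereas all 10 endothelial genes were above 0 (median 0.38).

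In the positive fraction the litters went different ways with Mylk-shRNA. All 10 genes were below scramble-shRNA in litter 1 (median -0.39) and 9 in litter 3 (median -0.19), whereas 9 were above it in litter 2 (median 0.28). Here too the 10 genes are not separate observations within a litter. The fit put 8 of the 10 below 0 (48.3% of all genes), with a median of -0.12, from -0.29 for Uncx to 0.10 for Wt1. Six2 stood at 185 ± 32.1 CPM with Mylk-shRNA and at 208 ± 16.4 CPM with scramble-shRNA, or 87.7% (95% interval 63.9 to 120%).

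With Rock1/2-shRNA the median differences from scramble-shRNA were -0.12 and -0.02 in the negative and positive fractions. In the negative fraction all 10 genes were below 0 (47.8% of all genes), with a median of -0.12 from -0.19 for Meox1 to -0.04 for Wt1, and 3 of the 10 were lower in all 3 litters (9.66% of all genes). The median moved to -0.02 without scramble-shRNA negative litter 1, to -0.29 without scramble-shRNA negative litter 3 and to -0.22 without Rock1/2-shRNA negative litter 1, and without Rock1/2-shRNA negative litter 3 only 6 genes were below 0, Six2 standing at 0.03. Without litter 3 in both groups all 10 were below 0, from -0.29 for Osr1 to -0.02 for Wt1. With all libraries Six2 stood at 318 ± 60.8 CPM, or 93.6% of scramble-shRNA (95% interval 68.5 to 128%). In the positive fraction 6 of the 10 were below 0 (49.1% of all genes, median -0.02), and 3 without litter 3 or without scramble-shRNA positive litter 1. Six2 stood at 203 ± 17.9 CPM there, or 97.8% (95% interval 71.3 to 134%). Each of these intervals includes 100%.

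**Figure D5:**
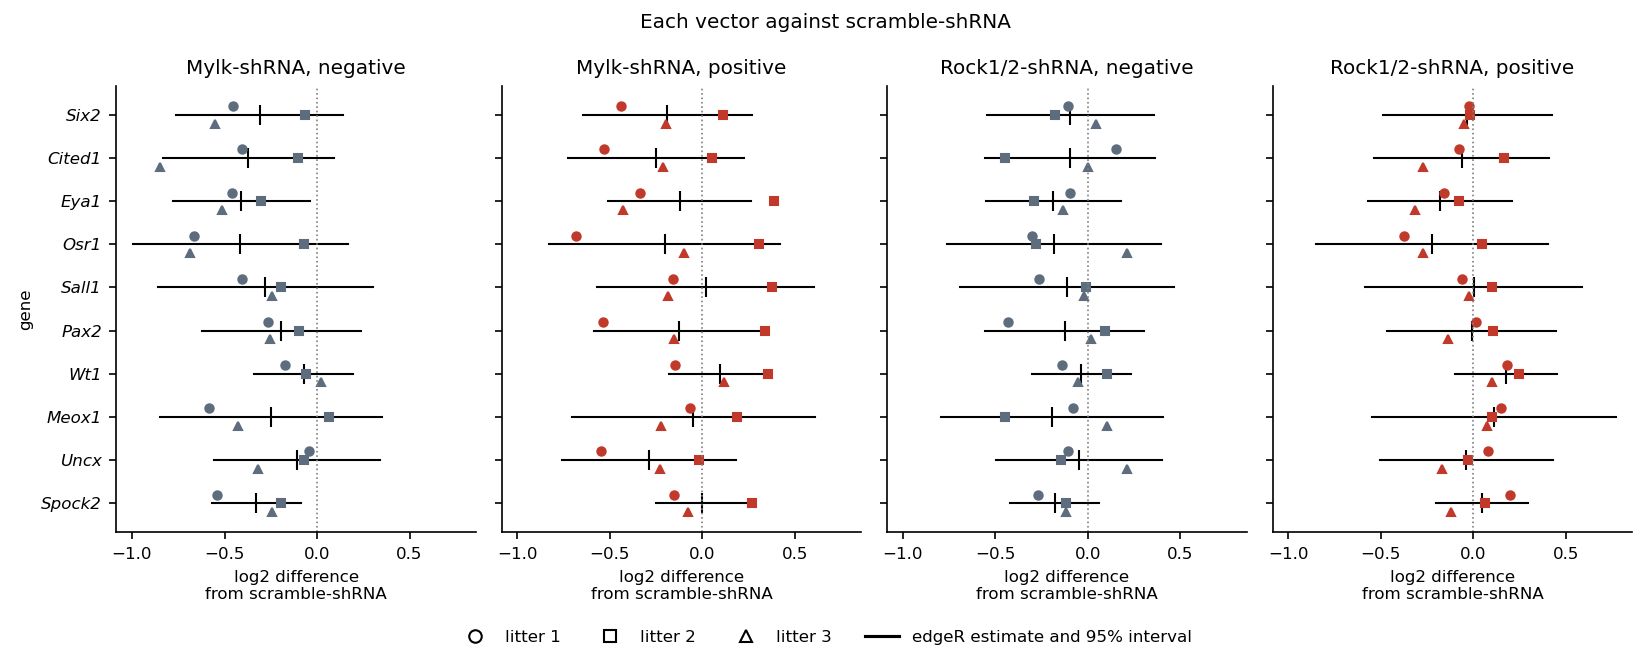
Log2 difference from scramble-shRNA (horizontal axis) of the 10 progenitor genes for each vector and fraction, with 1 marker per litter and the edgeR estimate with its 95% interval in black. With Mylk-shRNA in the negative fraction all 10 estimates lie left of 0, with a median of -0.30, while in the positive fraction the squares of litter 2 lie right of 0 for 9 genes.

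The knockdown vectors were also set against each other. Mylk-shRNA minus Rock1/2-shRNA gave a median log2 difference of -0.16 in the negative and -0.10 in the positive fraction for the 10 genes, with no gene called (121 and 199 of all genes at an unadjusted p under 0.05 by edgeR, 71 and 100 by DESeq2). The interaction of vector and fraction had a median of 0.19 for Mylk-shRNA and 0.09 for Rock1/2-shRNA, again with no gene called (217 and 145 at an unadjusted p under 0.05 by edgeR, 138 and 90 by DESeq2). The Mylk-shRNA value was 0.45 without litter 2 and -0.07 without litter 3 of the Mylk-shRNA negative group. For Spock2, the interaction with Mylk-shRNA was 0.33 ± 0.17 SE (unadjusted p = 0.0646 by edgeR).

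Over the 6 groups, the means of each of the 10 genes fell in the same broad order. All 3 negative groups lay above all 3 positive groups, a separation that was not counted over all genes. Within the negative groups the order of means was scramble-shRNA, Rock1/2-shRNA, Mylk-shRNA for all 10 genes (18.3% of all genes). The 10 genes varied together, so they are not separate observations of that order. In litters 1, 2 and 3, Mylk-shRNA lay below Rock1/2-shRNA for 8, 5 and 9 of them. Rock1/2-shRNA lay below scramble-shRNA for 9, 8 and 4. Neighbours in the order of the 6 means mostly did not differ beyond their spread. The step from the first to the second group exceeded the pooled SD of both for 0 of 10 genes, that from the second to the third for Spock2 alone, and the step from the lowest negative to the highest positive group for Eya1, Pax2, Wt1, Uncx and Spock2.

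The 10 genes varied together over the 18 libraries, which share fraction, litter and depth. Pearson's r of log2 (CPM + 1) between 2 of them ranged from 0.208 to 0.973 over the 45 pairs, with a median of 0.842, and after removing the group means from -0.450 to 0.967, with a median of 0.817. On these deviations Six2 followed the mean of the other 9 most closely (r = 0.958), and Wt1 did not follow it (r = -0.153). Wt1 thus shared the difference between fractions but not that between litters. The genes most like the mean of the 10 by level, among 10860 genes, were Bmp7 (r = 0.984), Shisa2 (0.975), Shroom3 (0.972), Rsl1d1 (0.970), Ezr (0.967), Cxxc5 (0.965), Pabpc1 (0.964) and Slc16a1 (0.964), all over 18 libraries. By the deviations from the group means they were Sncaip (0.961), Gfra1, a co-receptor for Gdnf (0.948), Bmp7 (0.941), Il17rd, an inhibitor of FGF signalling (0.938), Phf19 (0.937), Pdgfc (0.934), Phb1 (0.930) and Ezr (0.928).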

How the data were processed

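The 18 libraries were made from poly(A) RNA of sorted cells by tagmentation, and kidneys of a condition were pooled, per the labels' protocols. The authors deposited 1 table of 78409 rows, which gives each library's estimated count and its CPM. Upstream tools, per the submitters' processing notes, included FastQC 0.12.1, fastp 0.24.0, STAR 2.7.11, SAMtools 1.22.1, featureCounts (Subread 2.1.1) and MultiQC 1.32, and the genome was GRCm39. Settings, gene annotation and strand handling were not given in the sources, so reads of a gene and of an overlapping antisense gene cannot be told apart. The deposited CPM are the authors' counts scaled to 1e6 per library. Of the nonzero estimated counts 22.1 to 27.4% per library were not whole (tolerance 1e-06), and the sharing of multiply mapped reads is not described.

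Counts were rounded and the 92 spike-in rows were left out. Genes were filtered with filterByExpr (minimum count 10, minimum total 15), scaled by TMM and tested with edgeR's robust quasi-likelihood test on all 18 libraries with 1 mean per group (12 residual degrees of freedom), adjusted by Benjamini-Hochberg over all genes within each of 12 comparisons, threshold 0.05. Every adjusted p of a gene is from this test unless named otherwise. Intervals are 95% intervals of the fit, and levels are deposited CPM. For fold changes between fractions the reference is the negative fraction. The Cited1 to Six2 ratio used a pseudocount of 1. Likeness was ranked over tested genes of at least 5 CPM on average, leaving out the 10 genes, predicted genes and pseudogenes. The software was edgeR 4.0.16, DESeq2 1.42.0 and limma 3.58.1 in R 4.3.3, and Python 3.11.15 with matplotlib 3.10.9. The test was tried on simulated counts with known changes. These had no differences between litters or cultures, so the trial does not cover such differences.

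The 10 genes and the 12 other lists were chosen with earlier results of these data known, so their directions are not independent evidence. All 10 genes are named. From the other lists up to 4 called genes of smallest p are named, and the 8 genes most like the 10. The labels state that a replicate number is a litter. Libraries of the same litter but different groups correlated in their deviations from the group means with r = 0.244 to 0.683 (45 pairs) and those of different litters with r = -0.579 to 0.326 (90 pairs). Alternatives were litter or culture as a block, DESeq2's size factors and its own test, no filter, only the groups compared, no litter 3, and each library left out. The labels do not say how many embryos a litter gave. No pair of libraries of a group agreed within sampling noise. Promoter windows came from RefSeq, build GRCm38.p6, and no coordinates are given for the counted genes because no annotation of GRCm39 was used.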

Additional observations from a re-analysis of the deposited data

Results flagged for a closer look

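Rows for spike-in transcripts, which no comparison used, held 31 counts in the Mylk-shRNA negative library of litter 3, above the highest scramble-shRNA library, which held 22. All 3 Rock1/2-shRNA negative libraries also lay above that, at 28, 30 and 23 counts in litters 1, 2 and 3. The spike-in rows were noted because they lie outside the measurement of the kidney's genes. The range over the 18 libraries was 8 to 31 counts with a median of 19. These counts are not scaled to depth. The Mylk-shRNA negative library of litter 3 held 4519210 counts in all. The scramble-shRNA library with 22 was the positive one of litter 3 and held 3153480. The Rock1/2-shRNA negative libraries held 11492600, 8676640 and 7017740. As a share of the library, each of these lay below that scramble-shRNA positive library. The scramble-shRNA negative libraries held 17, 16 and 19 spike-in counts among 10915600, 12170800 and 3890030 in litters 1, 2 and 3. Against the one of the same litter, the share was higher for Mylk-shRNA in litter 3 and for Rock1/2-shRNA in litters 1 and 2. It was lower for Rock1/2-shRNA in litter 3. Differences in this share were not tested.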

How the results depend on the processing

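The count of progenitor genes called lower in the positive fraction on average stayed between 9 and 10 under every alternative that was run, and their median log2 fold change between -0.78 and -0.66 when 1 library was left out. Of all genes, 4967 to 5965 were called in either direction when 1 library was left out. Litter pairs the libraries by the labels, and with litter or culture as a replicate block the genes called in all rose from 2032 to 3848 or 3466 with scramble-shRNA, from 2186 to 4019 or 3674 with Mylk-shRNA and from 1859 to 3369 or 3026 with Rock1/2-shRNA. With only the groups compared, 1289 were called with Mylk-shRNA. Leaving out 1 library gave 1192 to 2212, 1414 to 2436 and 1174 to 1585 for these vectors. Without litter 3, 10 progenitor genes were called with scramble-shRNA and 9 with Mylk-shRNA, and 3 lay below 0 with Rock1/2-shRNA in the positive fraction. Leaving out 1 library gave 4 to 9 called with Mylk-shRNA, and log2 fold changes of Sall1 there from -0.41 to 0.016. In the negative fraction the median of Mylk-shRNA against scramble-shRNA ran from -0.54 to -0.089, with Pax2 from -0.36 to 0.0081, Meox1 from -0.70 to 0.018 and Uncx from -0.31 to 0.15. For Rock1/2-shRNA 6 to 10 genes lay below 0 in the negative fraction (median -0.29 to -0.020, Six2 -0.27 to 0.028) and 3 to 7 in the positive fraction (Six2 -0.085 to 0.024). The median interaction for Mylk-shRNA ran from -0.066 to 0.45. Leaving out 1 library left its litter unmatched in the comparison. The causes were not tested beyond what each omission shows. No vector comparison called a gene under any alternative. Eya1 with Mylk-shRNA did not pass with only the groups compared (adjusted p = 0.142 by edgeR). The remaining single-gene calls that changed are given beside their results or were gained, by a block, DESeq2, no filter, fewer groups, or leaving out litter 3 or its negative library. The higher Cited1 to Six2 ratio held under each alternative run (mean log2 difference 0.22 to 0.28 with 1 culture left out). With 3 libraries per group, the median SE of the 10 genes was 0.21 to 0.22 in the vector comparisons.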
